A study of Mus musculus with 9 samples.

Results

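The mitotic genes described here are 30 genes whose products take a cell from the onset of chromosome condensation to the separation of daughter cells. They were listed by gene symbol, with no threshold on a measured value, but with earlier results of these data known. All 30 were found in the count table of 54134 entries, and all 30 were among the 13810 genes abundant enough to be tested. Expression was measured by sequencing of poly(A) RNA from a wild-type mouse line, in 3 groups with 3 libraries each. The sample titles call the line HT22, the cell type field calls it HT-4, and the line is described as mouse hippocampal neuronal. All cells grew in serum-containing medium. Control cells had no further treatment. Hb cells received oxyhemoglobin, the oxygen-carrying pigment set free when red cells break down after a bleed. Cells of the Hb+NTR1 group, called ganyu in the labels, received oxyhemoglobin together with NTR1, an agent that the series title spells NGR1. No group in the labels used here received NTR1 alone, and no dose or duration is given there. Separate cultures are not named in the labels, so the spread behind each p-value is that between these libraries and may be technical only.

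Entry into mitosis is driven by the kinase Cdk1 bound to cyclin B, helped by the Polo and Aurora kinases. The spindle checkpoint, in which Bub1, BubR1 (the product of Bub1b) and Mps1 (the product of Ttk) act, restrains Cdc20 until every chromosome is attached to the spindle. Cdc20 then activates the anaphase-promoting complex, a ubiquitin ligase that works with the ubiquitin-conjugating enzyme Ube2c and destroys cyclin B. Transcripts of these genes rise together late in the cell cycle, under the DREAM and MuvB complexes with B-Myb and FoxM1, which act through the cell cycle homology region, a short promoter element, and with the factor NF-Y, which binds CCAAT boxes. Hippocampal neurons in the brain do not divide, so these genes report on the cycling of a cultured line. In RNA from a whole culture, fewer mitotic cells and less transcript per mitotic cell cannot be told apart.

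Each library held 13415648 to 16893746 counts. The share of counts that fell on the 30 genes was 0.693% ± 0.00291 in the control libraries, 0.688% ± 0.0178 in the Hb libraries and 0.690% ± 0.0178 in the Hb+NTR1 libraries (SD, n = 3). Hb replicate 2 stood apart from the other Hb libraries, with chi-square values of 13.2 and 11.04 per degree of freedom when set against them, and all further pairs within a group at 2.53 to 5.19. Its values are given with the genes it touches. Most markers of neurons were at or near 0, with 12 of 15 under 1 CPM (counts scaled to a common library total) in control, and Map2, Snap25 and Gad1 without a count in any library. The summed level of the neuron markers was 120 to 128 CPM in control, 129 to 137 in Hb and 58.0 to 61.8 in Hb+NTR1. The summed level of 10 fibroblast markers was 13606 to 14543 CPM in control, 11217 to 12831 in Hb and 1309 to 1433 in Hb+NTR1, with all 8 that could be tested lower in Hb+NTR1 than in Hb and with Lum and Fap at or near 0 throughout. Of 6 astrocyte markers, 5 were under 1 CPM in control and Aqp4 had no count, while Slc1a3 carried most of a sum that went from 194 to 225 CPM in control and 116 to 139 in Hb to 8.68 to 10.3 in Hb+NTR1. Of 6 oligodendrocyte markers, 5 were under 1 CPM in control, Olig2 had no count, and the sum went from 3.97 to 4.52 CPM in control and 2.35 to 2.85 in Hb to 1.84 to 2.10 in Hb+NTR1. The microglial markers were all under 1 CPM in control, and the erythroid sum stayed between 0.932 and 1.98 CPM. The part of these marker differences in the results on mitotic genes was not tested.

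The promoters are shown first because most of those given hold matches of the elements through which late cell cycle transcription is known to be directed. RefSeq promoters (GRCm38.p6), each running from 250 bases before the annotated start over the 50 bases from the start on, were given for 26 of the 30 genes. Ccna2, Aurkb, Tpx2 and Kif20a had no entry. Sequences were searched on both strands for the cell cycle homology region, spelled TTTGAA or TTTAAA, and for the NF-Y box, spelled CCAAT. A match of one spelling can share a base with a match of the other. A match is a run of letters and not a measured binding site.

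The windows below, 130 bases from 100 before the start to 30 from the start on, are those of the 3 genes with the largest falls among genes with a promoter entry, the 3 with the largest rises, and Cdk1 with its partner Ccnb1, which did not pass the test. All are written 5′ to 3′ on the gene's strand with whole matches in capitals, where TTCAAA and ATTGG are the same motifs read on the opposite strand.
Ccnb2, chr9:70421525-70421654, minus strand: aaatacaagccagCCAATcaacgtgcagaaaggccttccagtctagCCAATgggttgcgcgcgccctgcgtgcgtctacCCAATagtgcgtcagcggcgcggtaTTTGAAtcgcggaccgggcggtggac
Ube2c, chr2:164769829-164769958, plus strand: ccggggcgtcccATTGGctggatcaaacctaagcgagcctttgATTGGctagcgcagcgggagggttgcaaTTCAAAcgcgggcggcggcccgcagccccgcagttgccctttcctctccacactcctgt
Cdc20, chr4:118437314-118437443, minus strand: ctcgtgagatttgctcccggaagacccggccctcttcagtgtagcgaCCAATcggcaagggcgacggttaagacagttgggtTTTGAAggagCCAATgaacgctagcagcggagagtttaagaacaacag
Bub1, chr2:127831830-127831959, minus strand: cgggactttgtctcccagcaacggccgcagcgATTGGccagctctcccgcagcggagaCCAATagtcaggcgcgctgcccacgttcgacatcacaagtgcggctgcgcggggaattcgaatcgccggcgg
Anln, chr9:22389177-22389306, minus strand: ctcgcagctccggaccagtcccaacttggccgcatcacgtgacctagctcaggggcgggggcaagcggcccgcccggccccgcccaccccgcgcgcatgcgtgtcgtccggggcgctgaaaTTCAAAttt
Ttk, chr9:83834589-83834718, plus strand: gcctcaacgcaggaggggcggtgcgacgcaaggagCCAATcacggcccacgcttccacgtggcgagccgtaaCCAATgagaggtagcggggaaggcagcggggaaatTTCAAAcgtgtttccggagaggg
Cdk1, chr10:69352883-69353012, minus strand: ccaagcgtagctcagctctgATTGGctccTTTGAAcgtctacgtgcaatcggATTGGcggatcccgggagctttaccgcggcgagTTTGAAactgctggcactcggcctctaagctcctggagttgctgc
Ccnb1, chr13:100786457-100786586, minus strand: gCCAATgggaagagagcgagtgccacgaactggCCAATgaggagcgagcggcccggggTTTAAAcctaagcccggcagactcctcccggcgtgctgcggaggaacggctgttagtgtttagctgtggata

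The cell cycle homology region had a match in 24 of the 26 promoters (92.3%), against 30.6% of the promoters of all 27025 genes in the table and 22.7% of those of the 9534 tested genes with a promoter. The NF-Y box had a match in 22 of 26 (84.6%), against 41.1% of all genes and 44.0% of tested genes. Both motifs were present in 21 of 26 (80.8%), against 13.4% of all genes and 11.0% of tested genes. The 30 genes were listed as mitotic genes and many of them are textbook targets of this control, so the shares describe them and were not tested. Nusap1 had neither motif within the window searched. Bub1 had 2 NF-Y boxes without a match of either searched spelling of the cell cycle homology region. Anln had 2 matches of that region without an NF-Y box, and Birc5 and Kif2c had matches of it without an NF-Y box too. Both motifs stood in 9 of the 9 promoters of genes that were later found lower in Hb+NTR1 than in Hb, in 4 of 6 of those found higher and in 8 of 11 of those that did not pass the test. Promoters with both motifs thus occurred among genes of either direction, and the part of the motifs in these changes was not tested.

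**Figure D1:**
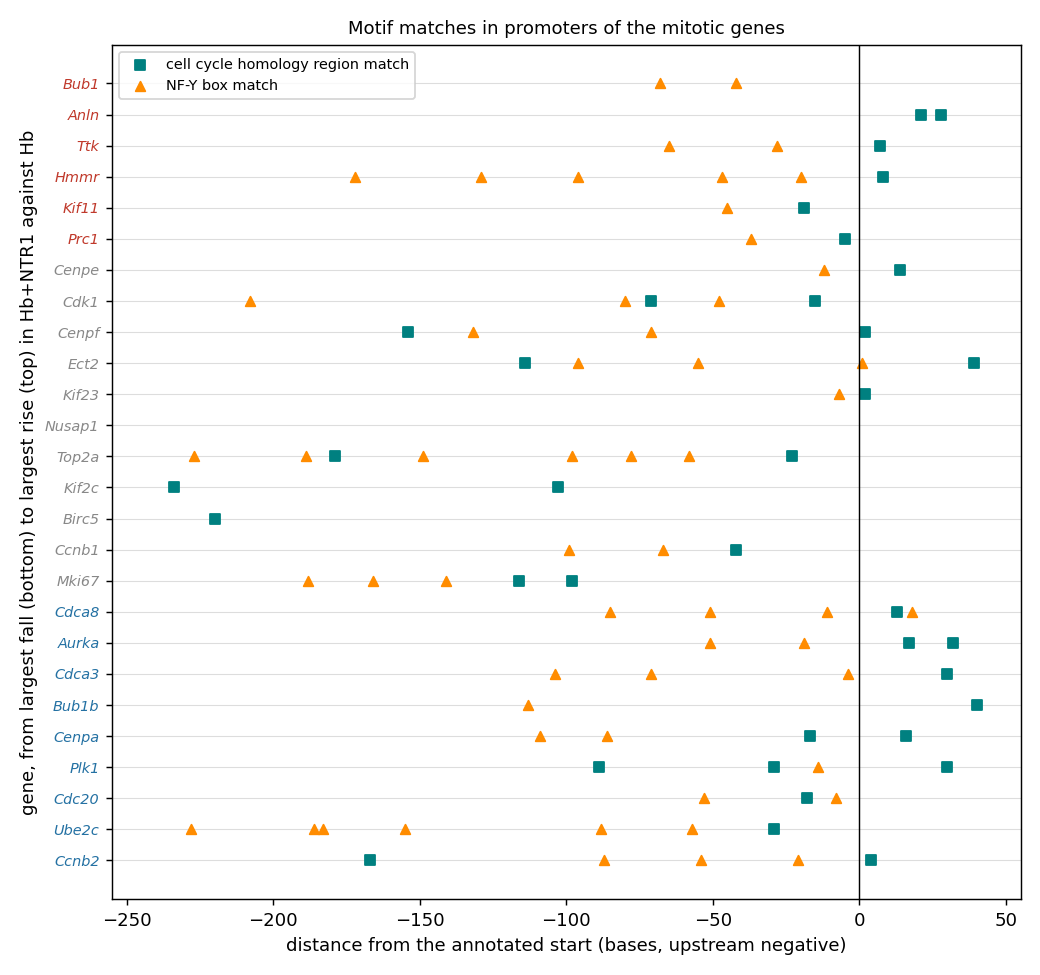
Positions of motif matches in 26 promoters, with distance from the annotated start in bases on the horizontal axis and genes ordered by their log2 fold change in Hb+NTR1 against Hb on the vertical axis (names in red are higher, blue lower, grey not past the test). Green squares are cell cycle homology region matches, present in 24 genes, and orange triangles are NF-Y box matches, present in 22, and both kinds occur from the bottom to the top of the order.

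Levels are given as CPM scaled by TMM factors, which adjust library totals for composition, and differences as the log2 fold change ± SE of the edgeR fit. For comparison between genes, levels were divided by the length of the longest annotated transcript. Per kilobase, Top2a, which encodes the topoisomerase that untangles sister chromosomes, was highest in control at 222 CPM per kb, followed by Cdc20 at 192, Ccna2 at 105, Mki67 at 98.9 and Anln at 98.8. Ccnb2, encoding cyclin B2, was lowest at 18.0 CPM per kb, with Ttk at 19.2 and the long kinetochore gene Cenpf at 21.1 next. Summed over the 30 genes, the level was 7101 ± 78.4 CPM in the control libraries, 6867 ± 138 in the Hb libraries and 6769 ± 200 in the Hb+NTR1 libraries (SD, n = 3). By library the sum was 7011, 7151 and 7141 in control, 6864, 6732 and 7007 in Hb, and 6805, 6554 and 6948 in Hb+NTR1. The Hb and Hb+NTR1 libraries overlapped in this sum, and each of them lay below the control libraries. Scaled by library totals alone, the control mean was 6926 CPM, with 6881 in Hb and 6896 in Hb+NTR1, so the step from control depended on the scaling. It also depended on Mki67 and Top2a. Without these genes, Hb replicate 2 at 4874 CPM and Hb+NTR1 replicate 3 at 4944 CPM lay above control replicate 1 at 4873.

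**Figure D2:**
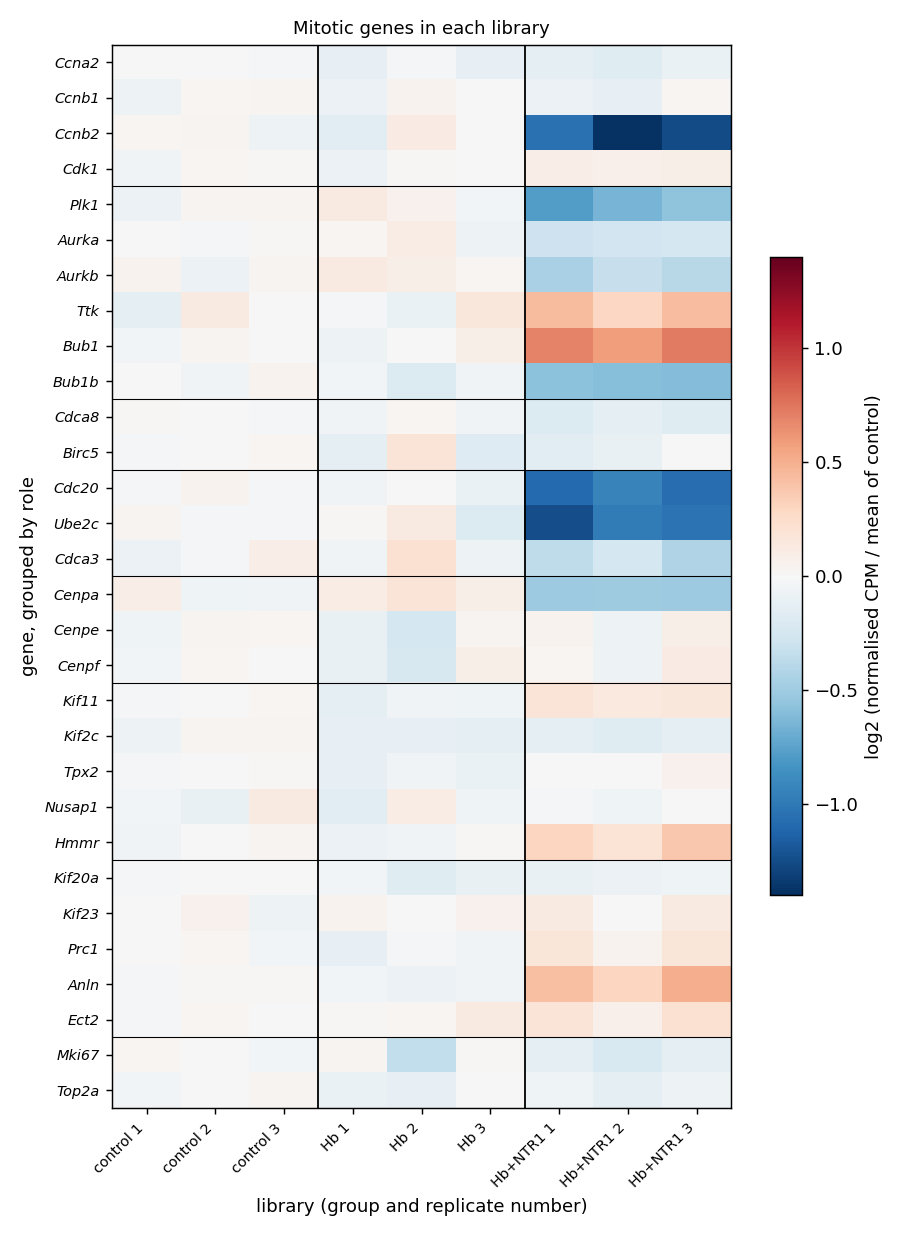
Heat map of the 30 mitotic genes (rows, grouped by role) in the 9 libraries (columns, by group and replicate number), coloured by log2 of the normalised CPM over the mean of the control libraries. The control and Hb columns are nearly white throughout, while the Hb+NTR1 columns hold deep blue for Ccnb2, Ube2c, Cdc20 and Plk1 and red for Bub1, Anln, Ttk and Hmmr.

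Hb was compared with control to see whether oxyhemoglobin alone moved the mitotic genes. None of the 30 passed edgeR's quasi-likelihood test at a Benjamini-Hochberg adjusted p under 0.05 over all tested genes, where 3.65% of all genes did. None of the 30 had an unadjusted p under 0.05 either, where 16.2% of all genes did, and DESeq2 called 0. Log2 fold changes ran from -0.11 for Kif2c, a microtubule-depolymerising kinesin, to 0.12 for Cenpa, the centromeric histone H3 variant, with a median of -0.035 beside 0 for all genes. The 95% intervals of the 30 genes lay between -0.25, the lower bound for Mki67, and 0.26, the upper bound for Cenpa. In 6 genes (Ccna2, Kif11, Kif2c, Tpx2, Kif20a and Anln) all Hb libraries were lower than all control libraries, which held for 10% of all genes (19.6% in either direction), and in 0 were they all higher.

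Mki67, the proliferation antigen that coats mitotic chromosomes, shows how far a single library bears on these values. It stood at 1012, 1001 and 972 CPM in the control libraries, at 1018, 787 and 1006 in Hb and at 908, 858 and 902 in Hb+NTR1. Hb replicate 2 was the lowest of all 9 libraries, and the other Hb libraries lay within or just above the control range. The log2 fold change of Hb against control was -0.087 ± 0.077 with all libraries (adjusted p = 0.627 in edgeR) and 0.023 without Hb replicate 2 (adjusted p = 0.852). Birc5, which encodes survivin of the chromosomal passenger complex, went the other way in the same library, with 147, 183 and 142 CPM in Hb beside 159, 162 and 165 in control and 146, 150.4 and 163 in Hb+NTR1. Its log2 fold change against control was -0.038 ± 0.078 (adjusted p = 0.861) and -0.16 without that library (adjusted p = 0.0882). Across all tested genes of known length, the deviation of Hb replicate 2 from its group correlated with transcript length with a Spearman coefficient of -0.40 (n = 13627 genes of 1 library), and over the 30 mitotic genes at -0.61. For Hb replicates 1 and 3 the coefficients were 0.20 and 0.27 over all genes, and 0.080 and 0.67 over the 30. Deviations within a group are tied to each other.

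Hb+NTR1 was compared with Hb to see what changed when NTR1 was added to oxyhemoglobin. Of the 30 genes, 16 passed the test, 10 lower and 6 higher. Of these, Ccnb2, Ube2c and Cdc20 fell the furthest, by 1.21, 1.07 and 0.98 on the log2 scale, followed by Plk1 and Cenpa. The rises were in Bub1 and Ttk of the checkpoint, in Anln and Prc1 of the cleavage apparatus, and in the spindle genes Hmmr and Kif11. Most of the transcriptome differed between these groups, with 62.3% of all genes called in this comparison, 30.7% higher and 31.6% lower. The 53.3% called among the mitotic genes is thus no excess over the background. Of the 30 genes, 2 passed with a fall of at least 2-fold and 0 with such a rise, where 16% of all genes passed with either. The median size of the log2 fold change was 0.17 in the 30 genes and 0.42 in all genes, and the median with its sign was -0.027 beside -0.011. In 19 of the 30 the libraries of the compared groups did not overlap, beside 64.7% of all genes. With an offset for transcript base composition, added after the data had been seen, the split was 3 higher and 15 lower. Under the same offset 29.5% of all genes were higher and 32% lower.

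**Figure D3:**
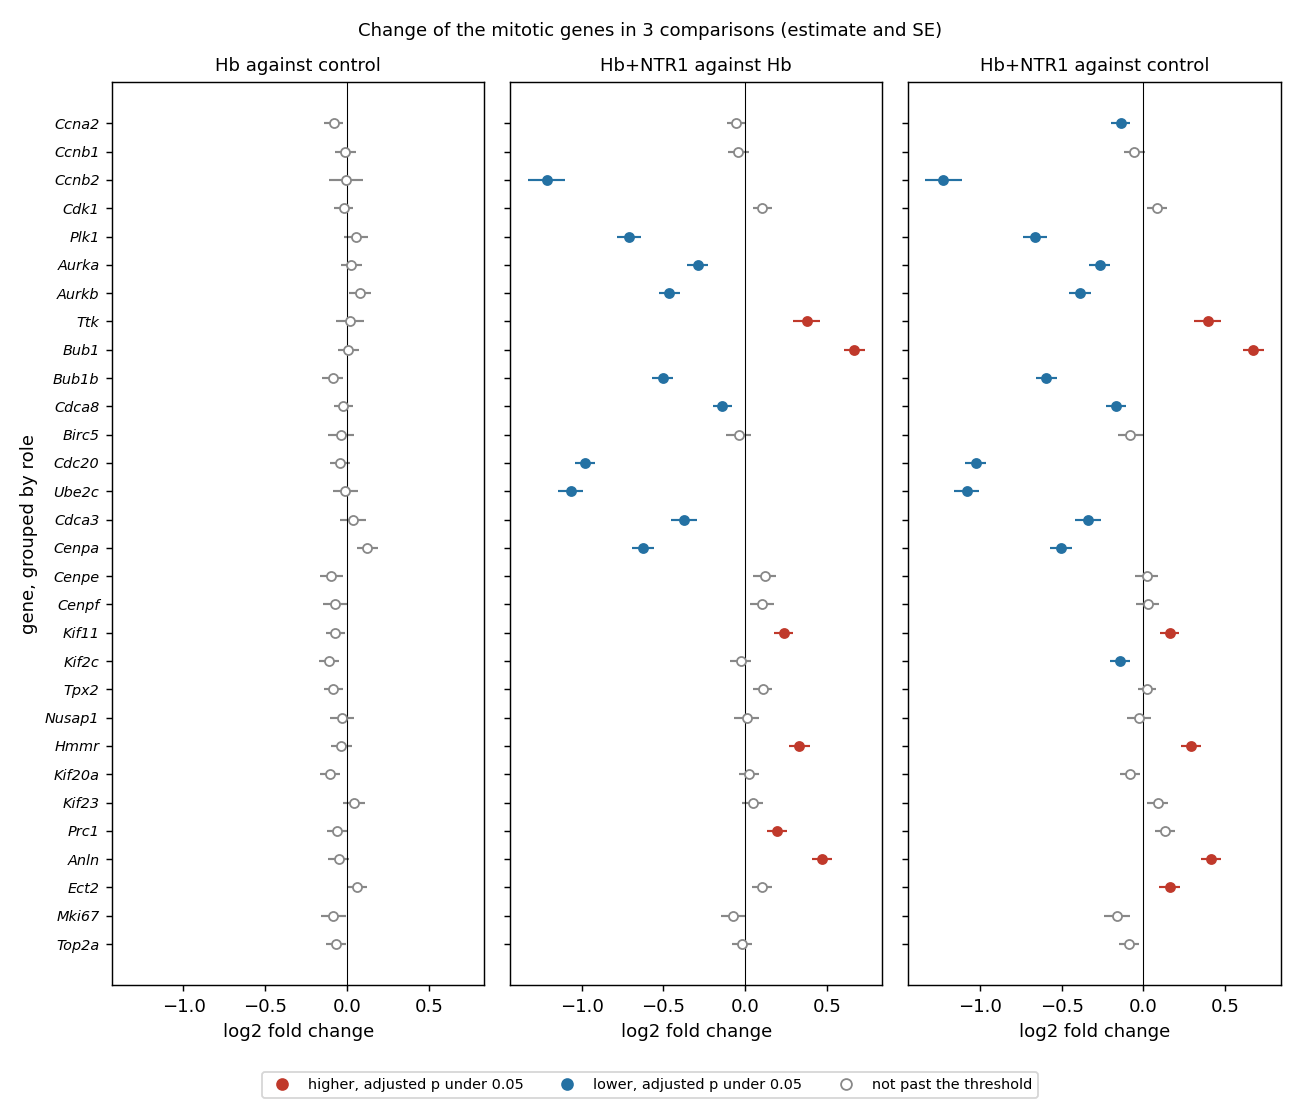
Log2 fold change with its SE for each mitotic gene (vertical axis, grouped by role) in Hb against control, Hb+NTR1 against Hb and Hb+NTR1 against control. Filled red and blue points passed the edgeR test as higher and lower, and open points did not, and every point of the left panel is open and lies between -0.11 and 0.12.

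Among the cyclins and their kinase, Ccnb2 (ENSMUSG00000032218.7, chr9:70407692-70421547, minus strand) fell while the others did not pass the test. It had 28.1, 28.4 and 26.2 CPM in control, 24.7, 29.9 and 27.5 in Hb and 13.4, 10.5 and 11.6 in Hb+NTR1. All Hb+NTR1 libraries lay below all others. The log2 fold change against Hb was -1.21 ± 0.11 (edgeR, adjusted p = 1.85e-09), a fall of 2.32-fold. Ccnb2 has a processed pseudogene, Ccnb2-ps, with up to 67 counts a library, so reads may have been divided between the copies. Ccnb1 (ENSMUSG00000041431.16, chr13:100778650-100786570, minus strand), encoding cyclin B1, the main mitotic cyclin, had 146, 157 and 158 CPM in control, 145, 159.6 and 153 in Hb and 145, 142 and 157 in Hb+NTR1. Its groups overlapped, with a log2 fold change of -0.043 and a 95% interval from -0.18 to 0.090 (adjusted p = 0.580). Its pseudogene Ccnb1-ps had up to 45 counts a library. Cdk1 (ENSMUSG00000019942.13, chr10:69335146-69352938, minus strand) stood at 177, 187 and 185 CPM in control, 173, 185 and 183 in Hb and 195, 192 and 194 in Hb+NTR1. Its Hb+NTR1 libraries were above the others, but by a log2 fold change of 0.10 ± 0.059 that did not pass (adjusted p = 0.131). Ccna2, encoding cyclin A2, was at 293 ± 10.4 CPM in Hb and 282 ± 7.52 in Hb+NTR1, and did not pass either (adjusted p = 0.423).

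The mitotic kinases all passed the test, 4 lower and 2 higher, where 62.3% of all genes passed, 31.6% lower and 30.7% higher. Plk1 (ENSMUSG00000030867.7, chr7:122159439-122169873, plus strand), the Polo kinase of mitotic entry and spindle assembly, had 93.3, 102 and 101 CPM in control, 107, 103 and 96.4 in Hb and 57.6, 63.1 and 66.8 in Hb+NTR1. The Hb+NTR1 libraries lay below all control and Hb libraries, which overlapped each other, and the log2 fold change against Hb was -0.71 ± 0.073 (adjusted p = 1.07e-08). Aurka (ENSMUSG00000027496.15, chr2:172356190-172370535, minus strand), the Aurora kinase of the centrosome, moved least of the kinases, from 97.3, 103 and 90.9 CPM in Hb, near the 95.8, 93.9 and 96.5 of control, to 77.9, 79.2 and 80.6. The log2 fold change was -0.29 ± 0.067 (adjusted p = 5.52e-04). Aurkb, the Aurora kinase of the passenger complex, went from 130 ± 4.59 to 94.3 ± 4.18 CPM with a log2 fold change of -0.46 ± 0.066. Bub1b, encoding the Cdc20-binding checkpoint protein BubR1, went from 148 ± 8.34 to 104 ± 1.18 CPM with a log2 fold change of -0.50 ± 0.064.

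Bub1 (ENSMUSG00000027379.13, chr2:127801122-127831865, minus strand) encodes the checkpoint kinase of the kinetochore, a paralog of Bub1b, and moved in the opposite direction. It is set out by library because of that contrast, which was chosen after its values were seen. It had 151, 159.8 and 155 CPM in control, 148, 155 and 165 in Hb and 252, 232 and 257 in Hb+NTR1, with every Hb+NTR1 library above every other. The log2 fold change against Hb was 0.66 ± 0.064 (adjusted p = 3.34e-09), the largest rise among the 30 genes. Ttk, whose product Mps1 starts checkpoint signalling, went from 55.8 ± 5.02 to 72.3 ± 4.18 CPM, a log2 fold change of 0.37 ± 0.083 (adjusted p = 4.32e-04).

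Of the partners of the passenger complex, Cdca8 (ENSMUSG00000028873.16, chr4:124918465-124939311, minus strand), encoding borealin, had 167, 165 and 163 CPM in control, 159, 168 and 159 in Hb and 145, 149.7 and 147 in Hb+NTR1. The Hb+NTR1 libraries were lowest, with a log2 fold change of -0.14 ± 0.059 (adjusted p = 0.0417). This call was lost under 11 of 18 alternatives. Among them, it was lost without any of the control libraries (adjusted p = 0.0560, 0.0661 and 0.0639 for replicates 1, 2 and 3), without Hb replicate 2 (0.0796), and without Hb+NTR1 replicates 1, 2 and 3 (0.125, 0.0659 and 0.104). Birc5, with the values given above, did not pass, at a log2 fold change of -0.041 ± 0.078 (adjusted p = 0.666). Without Hb replicate 2 its log2 fold change was 0.082 (adjusted p = 0.247).

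Of the partners of the anaphase-promoting complex, 3 of 3 were lower, beside 31.6% of all genes. Ube2c (ENSMUSG00000001403.13, chr2:164769898-164778822, plus strand), the enzyme that passes ubiquitin to the complex, had 194, 186 and 185 CPM in control, 190.0, 205 and 165 in Hb and 79.8, 95.4 and 92.3 in Hb+NTR1. The Hb+NTR1 libraries were far below the rest, with a log2 fold change of -1.07 ± 0.078 (adjusted p = 2.92e-11), a fall of 2.09-fold. Cdc20 (ENSMUSG00000006398.15, chr4:118432901-118437352, minus strand), the activator that the checkpoint restrains, is given by library because it was among the most abundant of the 30, a choice made after its values were seen. It had 339, 357 and 338 CPM in control, 334, 345 and 322 in Hb and 163, 181 and 165 in Hb+NTR1. The Hb+NTR1 libraries lay below all control and Hb libraries, which overlapped each other, and the log2 fold change was -0.98 ± 0.063 (adjusted p = 2.77e-12). Per kilobase it went from 186 CPM in Hb, behind Top2a alone, to 94.5, behind Top2a, Anln and Ccna2. Cdca3, encoding a substrate of the complex also known as Tome-1, went from 80.4, 96.5 and 79.2 CPM in Hb to 65.0, 70.4 and 62.3 in Hb+NTR1, beside 79.1, 82.4 and 88.7 in control. Its log2 fold change was -0.37 ± 0.081 (adjusted p = 3.22e-04).

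In the kinetochore and centromere group, Cenpa (ENSMUSG00000029177.9, chr5:30666777-30674830, plus strand), which marks the centromere in place of histone H3, had 111, 100.3 and 101 CPM in control, 112, 118 and 111 in Hb and 73.2, 74.0 and 73.5 in Hb+NTR1. The Hb+NTR1 values lay close to each other and below all others, with a log2 fold change of -0.63 ± 0.067 (adjusted p = 1.94e-08). Cenpf, encoding a large protein of the outer kinetochore and nuclear envelope, had 229.6, 240.0 and 236 CPM in control, 219.6, 202 and 249 in Hb and 240.3, 224 and 255 in Hb+NTR1. Its groups overlapped, at a log2 fold change of 0.10 ± 0.071 (adjusted p = 0.223). Cenpe, the kinetochore-bound kinesin that brings chromosomes to the spindle equator, was at 282 ± 27.8 CPM in Hb and 306 ± 16.8 in Hb+NTR1 (adjusted p = 0.146). Both genes have long transcripts and were highest among the Hb libraries in replicate 3. Without Hb replicate 3 both passed, Cenpe at a log2 fold change of 0.19 (adjusted p = 0.0224) and Cenpf at 0.19 (adjusted p = 0.0276).

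Spindle motors and microtubule proteins had 2 of 5 higher and 0 lower, beside 30.7% and 31.6% of all genes. Hmmr (ENSMUSG00000020330.16, chr11:40701395-40733422, minus strand), a microtubule-binding protein of the spindle pole, had 191, 199 and 203 CPM in control, 187, 191 and 199 in Hb and 242, 226 and 256 in Hb+NTR1. Every Hb+NTR1 library was above every other, with a log2 fold change of 0.33 ± 0.063 (adjusted p = 7.82e-05). Kif11, the motor that pushes spindle poles apart, went from 210 ± 5.90 to 247 ± 4.16 CPM, a log2 fold change of 0.23 ± 0.058 (adjusted p = 0.00123). Nusap1, which bundles spindle microtubules, moved least, with 107, 102 and 119.7 CPM in control, 98.5, 118 and 105 in Hb and 108, 105 and 110.0 in Hb+NTR1 and a 95% interval of the log2 fold change from -0.15 to 0.16. Tpx2, the activator of Aurora A on the spindle, went from 262 ± 6.33 CPM in Hb to 282 ± 5.97 in Hb+NTR1 without overlap and did not pass (adjusted p = 0.112), but passed without Hb replicate 2 (adjusted p = 0.0492). Kif2c had a log2 fold change of -0.030 ± 0.062.

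The midzone and cytokinesis group also had 2 of 5 higher and 0 lower, beside the same 30.7% and 31.6% of all genes. Anln (ENSMUSG00000036777.8, chr9:22332012-22389188, minus strand), encoding anillin, the scaffold of the contractile ring, had 447, 459 and 459 CPM in control, 443, 430.3 and 441 in Hb and 608, 561 and 648 in Hb+NTR1. The groups did not overlap, and the log2 fold change was 0.47 ± 0.062 (adjusted p = 6.71e-07). Prc1, which crosslinks microtubules of the central spindle, went from 149 ± 4.78 to 170.5 ± 8.22 CPM, a log2 fold change of 0.19 ± 0.062 (adjusted p = 0.00935). Kif20a, the midzone kinesin that recruits Plk1 and the passenger complex, moved least, with 131, 132 and 133 CPM in control, 128, 117 and 123 in Hb and 122, 124 and 127 in Hb+NTR1. The motor gene Kif23 and the cytokinesis gene Ect2 had log2 fold changes of 0.046 ± 0.065 and 0.10 ± 0.062 and did not pass.

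Neither gene of chromosome structure passed. Top2a (ENSMUSG00000020914.17, chr11:98992943-99024189, minus strand) had 1126, 1165 and 1188 CPM in control, 1089, 1071 and 1163 in Hb and 1113, 1053 and 1102 in Hb+NTR1, with overlapping groups and a log2 fold change of -0.023 ± 0.061 (adjusted p = 0.757). Mki67 (ENSMUSG00000031004.8, chr7:135689784-135716361, minus strand), with the values given above, had a log2 fold change of -0.075 ± 0.077 (adjusted p = 0.411). Its value depended on Hb replicate 2, without which it was -0.19 (adjusted p = 0.00269). Beside the change of -56.8% in Ccnb2, the estimates for these common markers of proliferation were -5.06% for Mki67 and -1.61% for Top2a, with 95% intervals of the log2 fold change from -0.23 to 0.084 and from -0.15 to 0.10.

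Against control, which shares the Hb+NTR1 libraries with the comparison above and is therefore no separate evidence, 18 of the 30 genes passed, 6 higher and 12 lower, beside 63.6% of all genes, 31.4% higher and 32.2% lower. Of these, 15 had the same call against Hb, 5 higher and 10 lower. The values stood side by side as follows. Ccnb2 had a log2 fold change of -1.22 ± 0.11 against control and -1.21 ± 0.11 against Hb. Ube2c had -1.08 ± 0.078 and -1.07 ± 0.078, and Cdc20 had -1.02 ± 0.063 and -0.98 ± 0.063. Bub1 had 0.67 ± 0.064 and 0.66 ± 0.064, and Anln had 0.41 ± 0.062 and 0.47 ± 0.062.

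A few small differences passed against 1 reference alone, and the difference between the references was not tested for them. Prc1 had a log2 fold change of 0.13 ± 0.062 against control (adjusted p = 0.0706). Ect2 was 0.16 ± 0.062 higher (adjusted p = 0.0280), Ccna2 was -0.14 ± 0.058 (adjusted p = 0.0433) and Kif2c was -0.14 ± 0.061 (adjusted p = 0.0441). These calls were close to the threshold. Ccna2 was lost without any of the control libraries (adjusted p = 0.100, 0.113 and 0.0913 for replicates 1, 2 and 3) and without any of the Hb+NTR1 libraries (0.104, 0.143 and 0.0533). Kif2c was lost without control replicates 2 and 3 (0.146 and 0.147) and without Hb+NTR1 replicates 1, 2 and 3 (0.0948, 0.119 and 0.0843). Ect2 was lost without control replicates 1, 2 and 3 (0.102, 0.0563 and 0.0772) and without Hb+NTR1 replicates 1 and 3 (0.0836 and 0.124). Kif11 and Cdca8 were lost against control without control replicate 1 (0.0787 and 0.0529), control replicate 2 (0.0719 and 0.0520) or Hb+NTR1 replicate 1 (0.0617 and 0.0642), and Cdca8 without Hb+NTR1 replicate 3 (0.0512). Mki67 had a log2 fold change of -0.16 ± 0.077 against control (adjusted p = 0.0701), and passed without Hb replicate 1 (0.0420) or 2 (0.00299). Prc1 passed without Hb replicate 2 (0.0365) or Hb+NTR1 replicate 2 (0.0377). Scaled by library totals alone, the calls against control were 9 higher and 9 lower, beside 4823 higher and 3933 lower among all 13810 genes. With the offset for base composition they were 3 higher and 17 lower, beside 30.6% and 32.2% of all genes.

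Other cell cycle genes were examined in 11 lists, which hold 134 further genes of the mitotic machinery. The rest are in the lists of S phase genes and of CDK inhibitors and D cyclins. Of the 189 genes in all, 186 could be tested. In Hb+NTR1 against Hb, 59 were higher and 66 lower, so 67.2% passed beside 62.3% of all genes. Counts for single lists in this comparison stand beside 30.7% of all genes higher and 31.6% lower, and no list was tested as a set. Their median size of the log2 fold change was 0.27, between the 0.17 of the 30 mitotic genes and the 0.42 of all genes.

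Around the checkpoint, 13 of 17 genes of the spindle checkpoint and outer kinetochore passed, 9 higher and 4 lower. Zwint, the kinetochore partner of the protein Knl1, went from 283 ± 17.8 to 409.5 ± 10.4 CPM (log2 fold change 0.53 ± 0.062), and Spc25 of the microtubule-binding Ndc80 complex from 53.5 ± 3.71 to 74.9 ± 2.52 CPM (0.49 ± 0.075). Its partner Spc24 went the other way, from 26.2 ± 3.74 to 14.0 ± 1.67 CPM (-0.90 ± 0.12). Pmf1, a subunit of the Mis12 complex, fell from 75.5 ± 9.18 to 32.8 ± 2.89 CPM (-1.21 ± 0.089). The inner centromere list had 4 higher and 8 lower of 18. Cenpn, Cenpm and Cenpt fell by 0.89, 0.96 and 0.75 on the log2 scale, and Cenpi rose by 0.41.

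The 8 condensin genes, which compact mitotic chromosomes, had 6 higher and 0 lower, beside 30.7% and 31.6% of all genes. Ncapg2 went from 140 ± 11.8 to 240 ± 5.11 CPM (0.78 ± 0.067), Ncapd3 from 82.5 ± 7.90 to 121 ± 5.80 (0.56 ± 0.073), Smc2 from 248 ± 9.24 to 325 ± 25.3 (0.39 ± 0.065), and Ncaph2 from 210 ± 6.67 to 254 ± 9.04 (0.28 ± 0.059). Of 15 genes of cohesin and separase, 7 were higher, among them Wapl, Nipbl and Esco2 with rises of 0.51, 0.48 and 0.54, and 2 lower. Espl1, encoding separase, the protease that cuts cohesin at anaphase, fell from 206 ± 26.8 to 117 ± 1.66 CPM (-0.82 ± 0.075). Other mitotic kinesins were 1 higher and 6 lower of 9, with Kif20b rising by 0.63 and Kif22, Kifc1 and Kif15 falling by 0.49, 0.35 and 0.40. Spindle and centrosome genes were 5 higher and 7 lower of 20. Cep55, Nek2 and Stil rose by 0.56, 0.53 and 0.54, and Numa1, which anchors the spindle poles, fell by 0.56.

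Of 17 genes of the anaphase-promoting complex itself and its regulators, 3 were higher and 6 lower. Fzr1, encoding Cdh1, the other activator of the complex beside Cdc20, fell from 90.1 ± 6.31 to 51.9 ± 3.88 CPM (-0.80 ± 0.075). The subunit genes Anapc2 and Cdc16 fell by 0.57 and 0.56, and Cdc27 rose by 0.29. The switch of mitotic entry had 4 higher and 4 lower of 12. Cdc25b, the phosphatase that activates Cdk1, fell from 100.1 ± 5.34 to 59.9 ± 2.19 CPM (-0.74 ± 0.069), and so did the gene of its opponent, the inhibitory kinase Pkmyt1, from 42.9 ± 6.48 to 26.1 ± 2.53 (-0.72 ± 0.11). Mastl, encoding Greatwall kinase, rose from 66.5 ± 3.88 to 117 ± 8.10 CPM (0.81 ± 0.073), while Arpp19, a Greatwall substrate, fell from 89.0 ± 8.98 to 54.9 ± 2.68 (-0.70 ± 0.078).

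Transcription factors of the mitotic program were 5 higher and 7 lower of 18. Foxm1, encoding the activator of late cell cycle genes, stood at 169, 154 and 158 CPM in control, 195, 148 and 164 in Hb and 112, 119 and 129 in Hb+NTR1. Its Hb+NTR1 libraries were below all others, with a log2 fold change against Hb of -0.49 ± 0.082 (adjusted p = 1.32e-05). Mybl2, encoding B-Myb, had 67.7, 71.6 and 64.8 CPM in control, 81.4, 75.1 and 72.1 in Hb and 42.5, 41.4 and 43.9 in Hb+NTR1, again without overlap, at -0.84 ± 0.075 (adjusted p = 1.05e-09). E2f8, a repressor of the E2F family, fell by 1.00 on the log2 scale from Hb to Hb+NTR1, and Tfdp1, the dimer partner of E2F proteins, by 0.66. Lin54, which encodes the MuvB subunit that contacts the cell cycle homology region, rose from 80.8 ± 1.87 to 150.1 ± 7.72 CPM (0.89 ± 0.066).

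Genes of DNA replication and S phase, the preceding stage of the cycle, had 11 higher and 20 lower of 42, and their summed level was 6110 ± 48.8 CPM in the control libraries, 5974 ± 46.7 in the Hb libraries and 5587 ± 61.4 in the Hb+NTR1 libraries (SD, n = 3). Tk1, Pold1 and Uhrf1 fell by 0.97, 0.89 and 0.55 on the log2 scale. Among CDK inhibitors and D cyclins, 4 of 10 tested genes were higher and 2 lower. Cdkn1a, encoding the cell cycle inhibitor p21, had 74.4, 81.2 and 85.1 CPM in control, 105, 115 and 105 in Hb and 166, 199 and 181 in Hb+NTR1. The groups did not overlap at either step, and the log2 fold change was 0.43 ± 0.075 in Hb against control (adjusted p = 8.94e-04) and 0.75 ± 0.074 in Hb+NTR1 against Hb (adjusted p = 4.66e-09). Rb1 rose by 0.68, and Cdk4 and Ccnd2 fell by 0.91 and 0.57. The 3 genes that could not be tested, Cdkn1c, Cdkn2a and Cdkn2b, had no count in any library, which allows up to 0.178 to 0.224 CPM, counting error only. In Hb against control 3 genes of the 11 lists were higher and 3 lower, with E2f2, Cdkn1a and E2f8 on the higher side and Ccnd1 and Kif18a among those on the lower, or 3.23% beside 3.65% of all genes. E2f2, Ccnd1 and Kif18a are named because they belong to that count, after their values were seen.

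**Figure D4:**
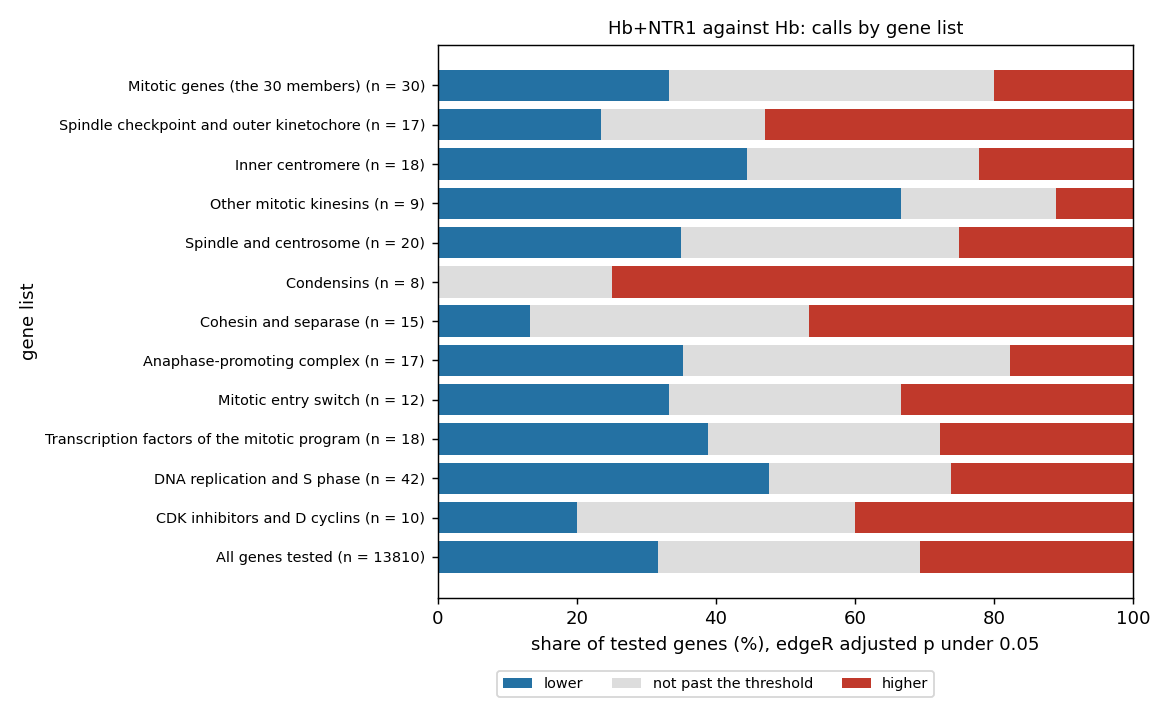
Share of tested genes (horizontal axis, percent) called lower (blue), higher (red) or not past the threshold (grey) in Hb+NTR1 against Hb, for the 30 mitotic genes, 11 lists of other cell cycle genes and all 13810 genes tested. Condensins have 6 higher and 0 lower of 8, other mitotic kinesins have 1 higher and 6 lower of 9, and all genes are near balance at 30.7% higher and 31.6% lower.

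The genes that rose and those that fell differed in base composition and length. The 6 higher genes had longest transcripts with 41.0% to 45.3% G and C, the 10 lower genes had 47.9% to 56.0%, and the 14 others had 40.2% to 50.3%. Transcripts of the higher genes were 2871 to 4819 bases long and those of the lower genes 1531 to 3806. Over the 30 genes, the Spearman correlation between GC content and the log2 fold change of Hb+NTR1 against Hb was -0.81, with a slope of -0.80 log2 units per 10 points of GC, and the correlation with transcript length was 0.61. GC content and length were themselves related in these genes, with a correlation of -0.61. In the other mitotic machinery the GC correlation was -0.48 (n = 134), in S phase genes -0.51 (n = 42), in all tested genes of known composition -0.25 (n = 13627), and in protein-coding genes within the range of levels of the 30 mitotic genes -0.32 (n = 7208), with slopes of -0.38, -0.44, -0.28 and -0.30. These are descriptions across genes that share the same libraries. In Hb against control, the correlation over the 30 genes was 0.14.

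The mitotic genes were also set beside other genes of like composition. Between 40% and 44% GC, the median log2 fold change was 0.21 for 1226 other protein-coding genes of like level and 0.16 for the 10 mitotic genes there. Between 44% and 48% GC, it was 0.13 for 1566 such genes and -0.041 for 9 mitotic genes. Between 48% and 52% GC, it was 0.036 for 1537 such genes and -0.37 for 7 mitotic genes. Between 52% and 56% GC, it was -0.13 for 1307 such genes, with quartiles at -0.45 and 0.25, and -0.85 for the 4 mitotic genes, Plk1, Cdc20, Ube2c and Aurkb. The base composition trend also varied among libraries of 1 group, with slopes of -0.12 log2 units per 10 GC points in Hb replicate 3 and 0.11 in Hb+NTR1 replicate 2 over the 30 genes. When the trend of all genes was taken out with an offset per library, the correlation over the mitotic genes was -0.65 and over all genes 0.0048. With that offset Bub1, Anln and Ttk remained higher at log2 fold changes of 0.44, 0.34 and 0.19. All 10 lower genes stayed lower, Ccnb2 at -1.24, Ube2c at -0.89 and Cdc20 at -0.80. Kif11, Hmmr and Prc1 no longer passed, at 0.034, 0.12 and 0.015 (adjusted p = 0.574, 0.0544 and 0.817). Ccna2, Ccnb1 and Top2a passed as lower at -0.15, -0.20 and -0.20 (adjusted p = 0.0165, 0.00458 and 0.00241), and Nusap1 and Ect2 turned to lower at -0.20 and -0.14 (adjusted p = 0.0167 and 0.0248).

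**Figure D5:**
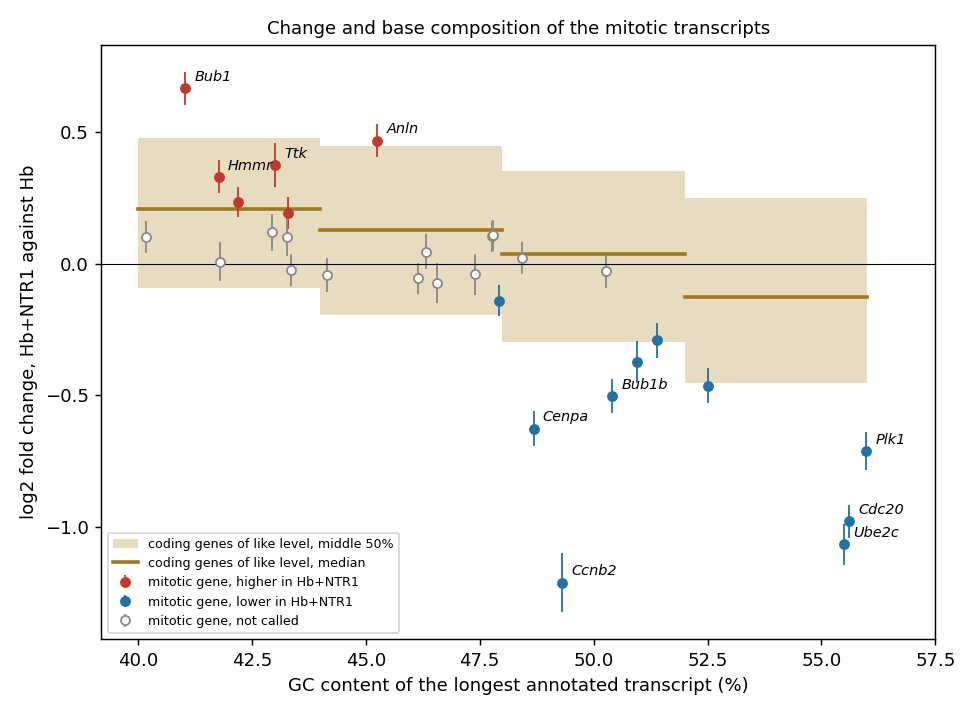
Log2 fold change of Hb+NTR1 against Hb with its SE (vertical axis) over the GC content of the longest annotated transcript in percent (horizontal axis) for the 30 mitotic genes, with the median and middle 50% of other protein-coding genes of like level in 4 bands of GC content. The higher genes (red) lie between 41.0% and 45.3% GC and the lower genes (blue) between 47.9% and 56.0%. Ccnb2, Cdc20, Ube2c, Plk1, Cenpa, Bub1b, Aurkb and Cdca3 lie below the middle 50% of other genes in their band, and Bub1 and Anln above it.

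Some counts could include reads of a neighbouring gene, or lack reads from shared bases, because no source used here states the strand setting of the counting. Exons of Ube2c overlap 592 bases of Tnnc2 on the opposite strand, and Tnnc2 had at most 0.0467 CPM in a group mean. Whether reads from shared bases were left uncounted was not tested. Cdc20 shares 53 exon bases with Elovl1, which had a log2 fold change of 0.058 in Hb+NTR1 against Hb (adjusted p = 0.475). Prc1 shares 911 exon bases with Rccd1, which fell by 0.88 while Prc1 rose, and Kif20a shares 1271 with Cdc23, which fell by 0.22. Ccna2, Cdca8, Nusap1 and Plk1 share 510, 232, 172 and 156 exon bases with opposite-strand genes.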

How the data were processed

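The authors deposited raw counts per gene symbol, not normalised, for 9 libraries. Per the submitters' processing notes, the tools were HISAT2 2.1.0, HTSeq 0.10.0 and bcl2fastq 2.19.1.403, and the genome was GRCm38. No source used here states the annotation release or how strand and multiply mapped reads were handled. Of 54232 entries, 98 exact repeats were removed. Columns with names in N were read as Hb+NTR1, since the authors' deposited comparison of this group with control contains N and C columns alone. Counts were fitted in R 4.3.3 with edgeR 4.0.16 (filterByExpr, minimum count 10, TMM, 1 robust quasi-likelihood fit of all 9 libraries with a term for group), two-sided, with Benjamini-Hochberg adjustment over 13810 genes and a threshold of 0.05. The common biological coefficient of variation was 6.90%. The SE is the size of the log2 fold change over the square root of F. The fit was also run on simulated data with few genes changed, in Hb against control only. That setting differs from the Hb+NTR1 comparisons, where most genes were called, so it does not bear on them. Gene positions, transcript lengths and GC content came from GENCODE M21, and promoters from RefSeq. Named genes were the members with the largest and smallest change of each role group, Mki67, Cdk1 and Ccnb1, up to 4 called genes of each list by adjusted p, and Cdkn1a, Foxm1 and Mybl2. A gene that this rule names is not reported here. The members and lists were chosen with earlier results of these data known. Alternatives were DESeq2 1.42.0, its size factors in edgeR, other filters, 6 libraries, a replicate block and each library left out. After the data were seen, library totals alone and a loess offset for GC content were tried too.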

Additional observations from a re-analysis of the deposited data

How the results depend on the processing

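Of the calls among the 30 mitotic genes, 12 of 16 in Hb+NTR1 against Hb and 12 of 18 in Hb+NTR1 against control were kept under all 18 alternatives. Hb against control had 0 calls under each of them, where 2% to 7.9% of all genes were called. With 1 library left out, the calls against Hb numbered 15 to 18 (6 to 8 higher, 9 to 10 lower), beside 55.7% to 61% of all genes. Those against control numbered 13 to 20 (4 to 7 higher, 9 to 13 lower), beside 56.6% to 65.7% of all genes. With an offset for GC content, and with that offset and the replicate block, 3 genes were higher in each Hb+NTR1 comparison in place of 6. With both, the lower genes against Hb numbered 16, beside 4396 of all 13627 genes tested there. With the offset the log2 fold change against Hb turned to -0.20 for Nusap1 and -0.14 for Ect2 and, with the block too, to -0.20 and -0.14. Against control it turned to -0.14 for Cenpe, -0.018 for Kif11 and -0.062 for Ect2 with the offset, and with the block too to -0.14, -0.018 and -0.062, and to -0.13 for Cenpf. The cause was not tested. The replicate block alone left 16 calls against Hb (6 higher, 10 lower), beside 63% of all genes. Against control it left 18 (6 higher, 12 lower), beside 64.4% of all genes, with Kif2c lost and Mki67 gained. Over all genes it called 645 in place of 504 in Hb against control. Whether replicate numbers mark shared cultures or days cannot be told from so few libraries. For 4 of 9 libraries, the mean correlation of deviations from the group was highest with libraries of their own number. Correlations of the same number ran from -0.045 to 0.12. Each of the 30 genes had at least 150 counts in every library, and 3 libraries a group limit the precision.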
